A study of Mus musculus with 20 samples.

Results

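Brown adipose tissue of 2 mouse lines was compared on 4 of the 20 spotted cDNA arrays of the series, those on which brown adipose RNA of the Fob3b line and of the F line with the same pool number had been hybridised together on the first array design. Mice of the F line were selected for obesity. The Fob3b line is congenic to them: it shares their background except at Fob3b, an obesity locus of chromosome 15, where its alleles come from a line selected for leanness. Each line was represented by 2 RNA pools, and each pool pair was hybridised in both dye orientations, with Fob3b RNA in red on 1 array and in green on the other. A dye swap of 1 pool pair counted as 1 replicate, which left n = 2 pool pairs. The sources used here do not give any treatment, the diet, the age or the number of animals behind a pool. The same design also held 4 liver arrays of the lines and 2 arrays of a liver pool against itself, used below only for comparison.

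The deposited value of a spot is a log ratio of the 2 channels, read here as log2, and the sources used here give neither its base nor its numerator dye. Ratios were turned so that the sign belongs to Fob3b over F if the deposited ratio is red over green. If it is green over red, every sign given here turns over together. The text therefore speaks of a positive and a negative side: positive is higher in the Fob3b line under the first reading and higher in the F line under the other. A difference of 1 on this scale is a fold of 2 if the base is 2. Only ratios were used, with no intensity of either channel, so the tissue label could not be checked against marker levels. Of 32 listed genes of brown fat thermogenesis only 3 were represented by a clone assigned to a single gene, and Ucp1, Cidea and Dio2 were not among them.

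Brown adipose tissue burns fuel to make heat. Its adipocytes hold many mitochondria in which uncoupling protein lets protons return without making ATP, and they oxidise fatty acids, glucose and lactate while also making new fatty acids from citrate. Citrate leaves the mitochondrion, yields acetyl-CoA in the cytosol and is turned into fatty acids with NADPH from malic enzyme, isocitrate dehydrogenase and the pentose phosphate route. The same acetyl-CoA feeds cholesterol synthesis. Both routes are known to be raised by insulin and by the mTOR kinase, which DEPTOR binds and restrains.

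The 4 arrays were uneven, and this bears on every value that follows. Before centring, the median ratio of an array lay between 0.338 and 1.402, and 25.3% to 67.0% of the variance over clones lay between the 48 printing blocks. The 2 spots of a clone correlated at 0.806 to 0.932. As deposited, all 6 pairs of arrays correlated positively across the 7680 clones, at 0.14 to 0.66, whichever line was in red. After turning, the 2 arrays of pool pair 1 therefore correlated at -0.23 and those of pool pair 2 at -0.60, while the 2 arrays with Fob3b in red correlated at 0.37 and the 2 with Fob3b in green at 0.38. The part of the ratio that stays the same whichever line is in red had an SD of 0.359 over clones, and the part that follows the line 0.16. With each printing block centred on its own median these SDs were 0.216 and 0.139, and the 6 correlations as deposited ran from -0.03 to 0.50. After turning, the arrays of pool pair 1 then correlated at -0.05 and those of pool pair 2 at -0.50. How much of the shared part comes from the dye and how much from the printing blocks was not tested. The pool pair means correlated at -0.24, and at 0.03 once each printing block was centred on its own median. In the gene groups below the 2 arrays of pool pair 2 often lay on opposite sides, the one with Fob3b in red high and the one with Fob3b in green low. Leaving out the red one turned the sign of 14 of 31 list medians and leaving out the green one that of 2. Either removal leaves pool pair 2 in 1 dye orientation, where the part that does not follow the line no longer cancels. Leaving out all of pool pair 2 turned 3 of 31, and leaving out all of pool pair 1 also turned 3.

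No clone passed the test of the line difference. With limma's moderated test on the pool pair means, fitted together with the 2 liver pool pairs and adjusted by Benjamini-Hochberg, 0.0% of the 7680 clones had an adjusted p under 0.05, 65 clones (0.846%) were under 0.05 before adjustment, and the lowest adjusted p of any clone was 0.223. When the clones of a gene were averaged, 0.0% of 3838 genes passed, and 39 (1.02%) had an unadjusted p under 0.05, 29 of them on the positive side (0.756%) and 10 on the negative side (0.261%). With each array entered as its own replicate, or with a dye term added, no clone passed either. The values below are therefore described by their size, by their agreement over arrays, pool pairs and clones, and by the same counts over all genes.

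Deptor, which encodes the DEP-domain protein that binds mTOR, had the largest mean ratio of the 3838 genes. Over its 2 clones it read 2.43 on the array of pool pair 1 with Fob3b in red, 2.09 on the array of that pair with Fob3b in green, 1.88 on the array of pool pair 2 with Fob3b in red and 0.51 on the other array of pool pair 2. All 4 arrays were on the positive side, and the last was far below the other 3. The 4 values given for a gene from here on follow this order of arrays. Each clone was positive on all 4 arrays by itself. The clone with the larger ratios read 3.33, 3.19, 2.17 and 0.75, and the other read 1.53, 0.99, 1.59 and 0.27. The clones thus kept the same sign but not the same size.

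The pool pair means of Deptor were 2.26 and 1.20, an average of 1.73 ± 0.25 (SE from limma, n = 2 pool pairs) or 3.31-fold, with an SD of 0.75 between the pool pairs. The SE is smaller than that SD alone would give, because the fit pools it with the spread of the liver pool pairs and limma draws the result towards that of all genes. The adjusted p was 0.0632 over 3838 genes. Over 11 other settings the adjusted p of Deptor ran from 9.95e-07 to 1 and its mean from 1.20 to 2.26. Without the array of pool pair 2 with Fob3b in green the mean was 2.07 and the adjusted p 0.000285, and without pool pair 1 the mean was 1.20 and the adjusted p 1. In liver the pool pairs of Deptor read 0.06 and 0.66, and the 2 self-self liver arrays read 0.02 and 0.00.

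The partners of DEPTOR in the mTOR pathway did not share its size. Of 54 listed genes of mTOR and insulin signalling 19 were measured. A positive mean was found for 13 (68.4%) and a negative one for 6, with a median of 0.041, beside 60.2% positive and 0.035 over all genes. Mlst8, a core subunit of both mTOR complexes, read -1.11, -0.01, 0.19 and -0.29 over the 4 arrays, with a mean of -0.31 ± 0.20. Akt1s1, which encodes the other inhibitor of the kinase, had a mean of -0.03 ± 0.20. Rragd, a GTPase that brings mTOR to lysosomes when amino acids are present, had -0.23 ± 0.21, and Prkag1, a subunit of the energy sensor AMPK, had 0.21 ± 0.23. Deptor was the only member with an unadjusted p under 0.05, and 0 members had an adjusted p under 0.05.

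**Figure D1:**
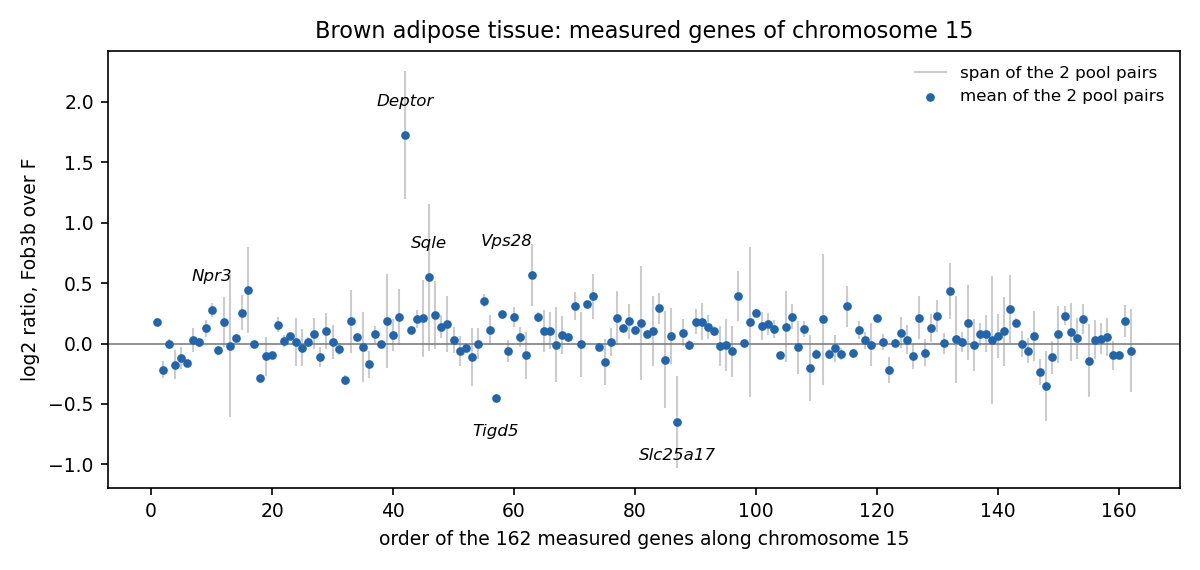
Mean log2 ratio of brown adipose tissue (vertical axis, points, Fob3b over F if the ratio is red over green) for the 162 measured genes of chromosome 15, in their order along the chromosome (horizontal axis). Grey lines span the 2 pool pairs, and Deptor at 1.73 and Slc25a17 at -0.65 stand farthest from 0.

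Deptor lies on chromosome 15, the chromosome of the locus that differs between the lines, and so does the gene at the other end of the ranking. Slc25a17, a carrier of the peroxisome membrane, had the lowest mean of all 3838 genes. It read -0.88 and -1.18 in pool pair 1 and -0.14 and -0.40 in pool pair 2. All 4 arrays were on the negative side, the mean was -0.65 ± 0.23 or 1.57-fold, and the adjusted p was 0.505 or higher in every setting run. In liver its pool pairs read -0.08 and 0.50, a mean of 0.21.

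Gene order was taken from the RefSeq annotation of GRCm38.p6, which gave a place to 3815 of the measured genes and put 162 of them on chromosome 15. Of these 162 genes 17 (10.5%) had 1 sign on all 4 arrays, 10 positive and 7 negative, beside 221 of 3653 genes (6.05%) on the other chromosomes. An unadjusted p under 0.05 was found for 5 of 162 (3.09%), against 34 of 3653 (0.931%). The 5 were Deptor, Slc25a17, Tigd5, Vps28 and Spats2, the last 2 named only after their values were seen. Tigd5 had a mean of -0.45 ± 0.19, Vps28 of 0.57 ± 0.21 and Spats2 of 0.43 ± 0.20. Vps28, a subunit of the ESCRT sorting machinery, was positive on 3 arrays and read -0.29 on the array of pool pair 2 with Fob3b in green. Spats2 was positive on both arrays with Fob3b in red, at 1.53 and 0.64, and negative on both with Fob3b in green, at -0.20 and -0.23. The median over the chromosome was 0.054, beside 0.034 for the others.

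The measured neighbours of Deptor had far smaller ratios. Of the 8 measured genes on either side 13 of 16 (81.2%) had a positive mean, beside 60.1% of all genes with a place. Their median was 0.124, beside 0.035 for all genes with a place, and their range from -0.17 to 0.55. Among the 16 neighbours 0 had 1 sign on all 4 arrays, beside 6.24% of all genes with a place. The nearest measured gene on 1 side, Ext1, a glycosyltransferase of heparan sulfate synthesis, read -0.35, 1.25, -0.69 and 0.66. The nearest on the other, Mrpl13 of the mitochondrial ribosome, read 0.06, 0.16, 0.47 and -0.26. Sqle, 26 protein-coding genes from Deptor in that annotation and 4 measured genes away, had the highest value of the 16 and is described with the cholesterol genes. Npr3, the clearance receptor of natriuretic peptides, lies farther off on the same chromosome and was positive on all 4 arrays at 0.30, 0.37, 0.25 and 0.19. Its 2 clones differed, at means of 0.11 and 0.44.

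After Deptor, the largest means belonged to 2 enzymes of lipid synthesis, Scd2 and Fdft1. Of 3838 genes 11 (0.287%) had a mean past 1.5-fold, 9 on the positive side (0.234%) and 2 on the negative (0.0521%). Only 3 (0.0782%) were past 1.5-fold with 1 sign in both pool pairs, and these were Deptor, Scd2 and Fdft1. The other 6 on the positive side were Sbk1, Me1, Fam151a, Tkt, Fam241a and Fasn, and the 2 on the negative side Slc25a17 and Mmd2. Sbk1 at 0.83, Fam241a at 0.64 and Mmd2 at -0.59 were named after their values were seen.

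**Figure D2:**
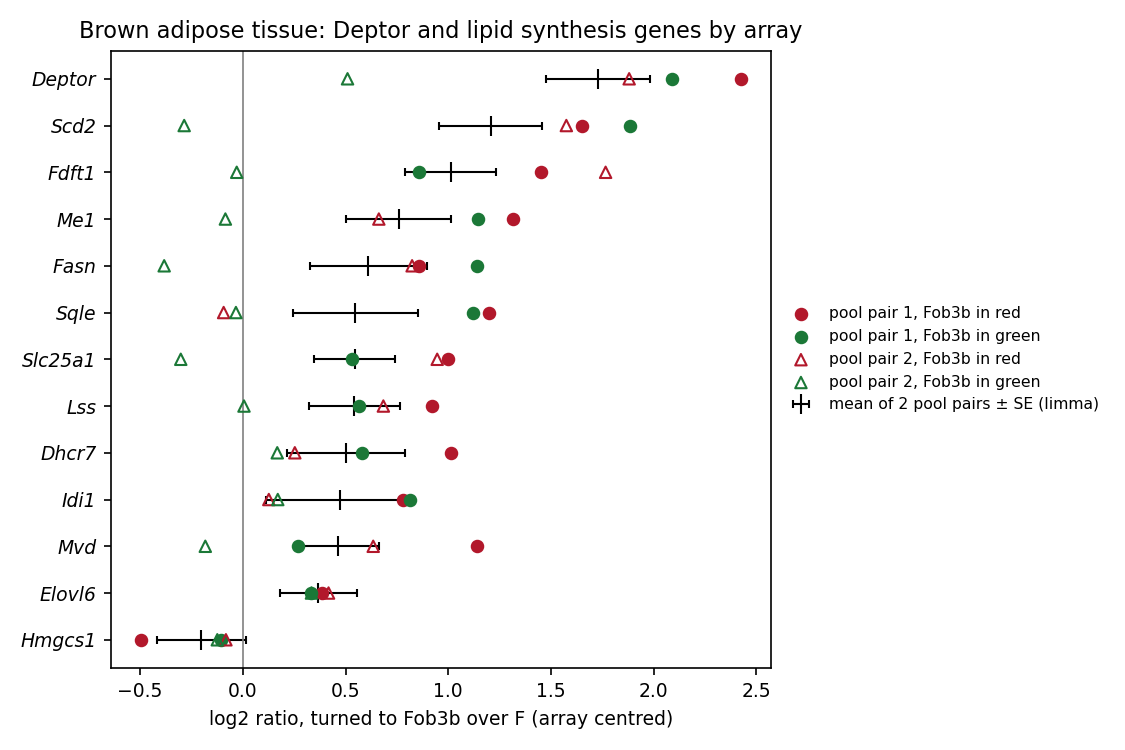
Log2 ratio (horizontal axis, Fob3b over F if the ratio is red over green) of Deptor and 12 lipid synthesis genes on each of the 4 brown adipose arrays. Filled circles are pool pair 1, open triangles pool pair 2, red and green the dye of the Fob3b RNA, and black bars the mean of the 2 pool pairs with its SE from limma. For Scd2, Me1, Fasn and Slc25a1 the green triangle lies left of 0 and the other 3 symbols right of it, and the 4 symbols of Elovl6 lie close together.

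Promoters of 5 lipid synthesis genes are shown because members of both routes lay far on the positive side while Hmgcs1, which makes HMG-CoA at the start of the sterol route, did not. Each sequence is the 120 bases just before the RefSeq transcription start in GRCm38.p6, read 5′ to 3′ on the strand of the gene, with CCAAT or its reverse complement ATTGG in capitals. CCAAT is the box bound by the factor NF-Y, which is known to act together with sterol regulatory element-binding proteins.
Fasn, chr11:120824548-120824667, minus strand: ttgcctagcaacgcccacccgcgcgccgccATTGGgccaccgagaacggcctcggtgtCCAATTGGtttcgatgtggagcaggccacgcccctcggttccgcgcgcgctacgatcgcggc
Lss, chr10:76531485-76531604, plus strand: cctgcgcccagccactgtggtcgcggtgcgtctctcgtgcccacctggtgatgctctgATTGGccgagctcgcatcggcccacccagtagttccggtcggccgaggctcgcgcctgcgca
Idi1, chr13:8885486-8885605, plus strand: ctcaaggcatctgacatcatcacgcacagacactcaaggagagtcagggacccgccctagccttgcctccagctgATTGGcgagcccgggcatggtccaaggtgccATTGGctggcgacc
Mvd, chr8:122443423-122443542, minus strand: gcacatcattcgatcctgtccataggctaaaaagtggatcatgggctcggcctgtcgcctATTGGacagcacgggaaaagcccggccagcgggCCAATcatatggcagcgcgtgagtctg
Hmgcs1, chr13:119690231-119690350, plus strand: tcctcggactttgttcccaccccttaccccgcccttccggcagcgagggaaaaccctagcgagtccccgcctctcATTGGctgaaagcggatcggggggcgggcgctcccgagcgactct

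In the 250 bases before the start, searched on both strands, CCAAT was found in all 7 measured cholesterol synthesis genes with a promoter in the RefSeq table and in 5 of 7 genes of fatty acid and triglyceride synthesis. It was found in 33.8% of 32851 promoters of the same length, which belong to 27025 genes, 37.5% of which have it. Of the 3 CCAAT matches shown for Fasn, 2 overlap in CCAATTGG. The box was present in Lss, Idi1, Mvd and Dhcr7 on the positive side and in Hmgcs1, Ggps1 and Nsdhl on the negative side. Searched the same way, TCACNCCAC was found in Hmgcs1 alone of these genes, beside 1.05% of promoters and 1.22% of genes. CACGTG was found in Slc25a1 and Dhcr7, beside 6.02% of promoters and 6.86% of genes. In Dhcr7, CACGTG and CCAAT lay in different promoters of the gene. A match is a stretch of letters and was not tested as a binding site.

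The fatty acid genes were mostly on the positive side. Of 28 genes listed for fatty acid and triglyceride synthesis, 10 were measured. A positive mean was found for 9, beside 60.2% of all genes, and 6 were positive in both pool pairs, beside 26.2%. The median was 0.292. Scd2, the stearoyl-CoA desaturase that makes monounsaturated fatty acids outside the liver, had the largest value after Deptor. It read 1.65 and 1.89 on the arrays of pool pair 1, and 1.58 and -0.29 on those of pool pair 2. The first 3 arrays lay close together and the last was on the negative side. The mean was 1.21 ± 0.25 or 2.31-fold with an adjusted p of 0.733, and over the other settings the adjusted p ran from 0.00141, without pool pair 2, to 1. Without that last array the mean was 1.67 and the adjusted p 0.00387.

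Fasn, the synthase that builds palmitate, repeated that pattern at a smaller size. It read 0.86, 1.14, 0.82 and -0.38, with a mean of 0.61 ± 0.28, so pool pair 1 stood at 1.0 and pool pair 2 at 0.22. Me1, the malic enzyme that supplies NADPH, read 1.31, 1.14, 0.66 and -0.09 over 2 clones, with a mean of 0.76 ± 0.25. Its clones stood at 0.76 and 0.75. Pool pair 1 lay far above pool pair 2 for this gene, at 1.23 against 0.29. On the second array design, where other clones read RNA of pool pair 1, Fasn stood at 0.98 and Me1 at 1.02. Such closeness was not general: over the 943 genes on both designs the 2 readings of pool pair 1 correlated at 0.21 across genes, which are not independent replicates.

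Slc25a1, the carrier that takes citrate out of the mitochondrion, read 1.0, 0.53, 0.95 and -0.30, with a mean of 0.54 ± 0.20. Elovl6, which lengthens palmitate to stearate, behaved more evenly than any of these. It was measured by 5 clones in 5 printing blocks and read 0.39, 0.33, 0.42 and 0.33. Every clone was positive in both pool pairs, with clone means from 0.14 to 0.47. The mean was 0.37 ± 0.19, with an unadjusted limma p of 0.0751, since the fit takes the spread of the liver pool pairs and of the other genes into account. In liver Elovl6 had a mean of -0.01. Genes that esterify fatty acids were near 0: Agpat1, an acyltransferase of phosphatidic acid synthesis, had 0.12 ± 0.24, and Dgat1, which makes triglyceride, had -0.10 ± 0.19.

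All 4 measured genes of NADPH supply were positive in both pool pairs, where 26.2% of all genes were, with a median of 0.57. Without the array of pool pair 2 with Fob3b in red all 4 still had a positive mean, and the median was 0.219. Over all genes that setting gave 49.1% positive and a median of -0.004. Besides Me1 they were Tkt, Idh1 and Rpe. Tkt, the transketolase of the pentose phosphate route, read 0.88, 0.58, 1.55 and -0.41 over 2 clones, with a mean of 0.65 ± 0.20. Its clones stood at 0.62 and 0.68, and without the array of pool pair 2 with Fob3b in red the mean was 0.16. Idh1, the cytosolic isocitrate dehydrogenase, read 0.63, 0.73, 0.72 and -0.12, with a mean of 0.49 ± 0.31. Both genes were positive on 3 arrays and negative on the array of pool pair 2 with Fob3b in green.

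Cholesterol synthesis had members on both sides. Of 21 listed genes 9 were measured, 6 had a positive mean (66.7%) and 3 a negative one, a share near the 60.2% positive over all genes. The median of 0.473 came mainly from pool pair 1, where it was 0.742, beside 0.148 in pool pair 2. Fdft1, squalene synthase, read 1.45, 0.86, 1.77 and -0.03, with a mean of 1.01 ± 0.22 or 2.02-fold and an adjusted p of 0.793. Its adjusted p ran from 0.0389, without the array of pool pair 2 with Fob3b in green, to 1 over the other settings. Lss, which closes the sterol rings, read 0.92, 0.57, 0.68 and 0.01, with a mean of 0.54 ± 0.22. Mvd, which makes isopentenyl diphosphate, had 0.46 ± 0.20 and was negative on that same array, at -0.18.

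Sqle and Idi1 differed by pool pair rather than by dye. Sqle, squalene epoxidase, read 1.20 and 1.12 in pool pair 1 but -0.09 and -0.03 in pool pair 2, and its mean of 0.55 ± 0.30 rests on pool pair 1. Idi1, which isomerises isopentenyl diphosphate, read 0.78 and 0.82 in pool pair 1 and 0.13 and 0.17 in pool pair 2. The arrays of a pool pair lay close to each other for both genes and far from those of the other pair. Dhcr7, which catalyses the last step to cholesterol, read 1.01, 0.58, 0.25 and 0.17, also with pool pair 1 above pool pair 2. Hmgcs1 was negative on all 4 arrays, at -0.50, -0.11, -0.08 and -0.12, with a mean of -0.20 ± 0.22. Among genes of sterol handling, Npc2, which passes cholesterol out of lysosomes, read 0.89, -0.10, 1.32 and -0.02, with a mean of 0.52 ± 0.19. It was high on both arrays with Fob3b in red and just below 0 on both with Fob3b in green, and without the red array of pool pair 2 the mean was 0.19. The receptor Vldlr had 0.16 ± 0.19.

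**Figure D3:**
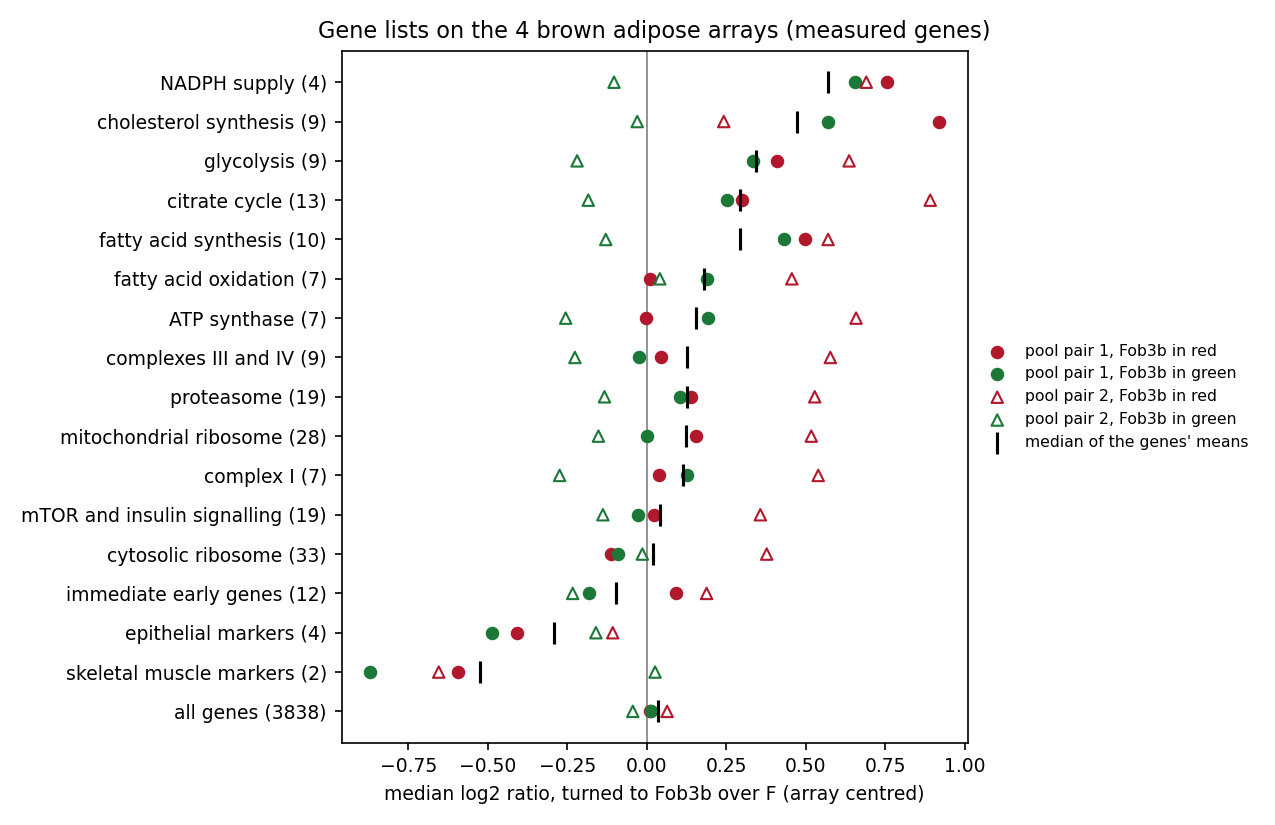
Median log2 ratio (horizontal axis, Fob3b over F if the ratio is red over green) of each gene list on each of the 4 brown adipose arrays, with the number of measured genes in brackets. Symbols are as in the plot of lipid genes, and the black bar is the median of the genes' means. Most metabolic lists lie right of 0 on 3 arrays and left of 0 on the array of pool pair 2 with Fob3b in green, while all 3838 genes stay near 0 on each array.

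The citrate cycle and the enzymes that feed it were on the positive side in every measured member. All 13 measured genes of 28 listed were positive in both pool pairs, where 26.2% of all genes were, and 3 were positive on all 4 arrays, where 3.41% were. The median was 0.293 with a range from 0.18 to 0.438, and none of the 13 had an unadjusted p under 0.05. The median of pool pair 1 was 0.239 and that of pool pair 2 was 0.36. Behind the latter stood arrays of opposite sign, at 0.891 with Fob3b in red and -0.184 with Fob3b in green. Without the array of pool pair 2 with Fob3b in red the median was 0.040 with 9 of 13 positive, and without the other array of that pair it was 0.555 with 13 of 13. Over all genes 49.1% and 57.1% were then positive, with medians of -0.004 and 0.037. The 3 members on the second array design had a median of 0.015 there in pool pair 1.

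Cs, citrate synthase, was the steadiest member. Over 2 clones it read 0.36, 0.53, 0.66 and 0.21, and both clones were positive on all 4 arrays. Its mean was 0.44 ± 0.21. In liver its pool pairs read -0.73 and 0.02, a mean of -0.35, and the self-self liver arrays read -0.51 and -0.33. Pdhx, a structural subunit of pyruvate dehydrogenase, read 0.54, 0.24, 0.89 and 0.01, and Idh3a, a subunit of the mitochondrial isocitrate dehydrogenase, read 0.21, 0.27, 0.68 and 0.08. Mdh1, the cytosolic malate dehydrogenase, read 0.49, 0.41, 1.13 and -0.37 over 3 clones, all 3 of them positive in both pool pairs. Pdha1, the catalytic subunit of pyruvate dehydrogenase, had a mean of 0.39 ± 0.21.

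Glycolysis showed the same side with the same contrast between the 2 arrays of pool pair 2. All 9 measured genes of 23 listed had a positive mean, where 60.2% of all genes did, and 7 were positive in both pool pairs, where 26.2% were. The median was 0.343 beside 0.035 over all genes. Pkm, pyruvate kinase, read 0.85, 0.33, 1.49 and -0.43 over 2 clones, with a mean of 0.56 ± 0.19. Gapdh read 0.42, 0.49, 1.12 and -0.34, with a mean of 0.42 ± 0.22, and Pfkl, a phosphofructokinase, had 0.39 ± 0.18. Pgk1, phosphoglycerate kinase, was the member with 1 sign on all 4 arrays, at 0.25, 0.54, 0.28 and 0.48. Slc2a1, a glucose transporter, stood at 0.03 ± 0.18. Without the array of pool pair 2 with Fob3b in red the median of the list was 0.059 with 7 of 9 positive. All genes then had a median of -0.004 with 49.1% positive.

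The respiratory chain lay nearer 0 than the citrate cycle. All 7 measured genes of complex I, all 9 of complexes III and IV and all 7 of ATP synthase had a positive mean, as 60.2% of all genes did, with medians of 0.113, 0.128 and 0.155 beside 0.035 over all genes. In pool pair 1 alone the medians were 0.094, 0.019 and 0.102. None of these 23 genes had 1 sign on all 4 arrays. Without the array of pool pair 2 with Fob3b in red the medians were -0.017, -0.089 and -0.014, and 3 of 7, 2 of 9 and 3 of 7 genes were positive. The same setting gave a median of -0.004 and 49.1% positive over all genes. Ndufa10 of complex I had the largest mean of the 3 groups, 0.31 ± 0.20. Atp5a1, the alpha subunit of ATP synthase, was read by 3 clones and had 0.25 ± 0.23.

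Fatty acid oxidation had 7 of 7 measured genes with a positive mean and a median of 0.181, 6 of them positive in both pool pairs, beside the same 60.2%, 0.035 and 26.2%. Echs1, the enoyl-CoA hydratase, had the largest mean, 0.39 ± 0.20, with -0.04, 0.50, 0.42 and 0.69 on the arrays. Here the array of pool pair 2 with Fob3b in green was on the positive side. Gpd2, the mitochondrial glycerol phosphate dehydrogenase that carries cytosolic electrons to the respiratory chain, read 0.54, 0.59, 0.99 and 0.01, with a mean of 0.53 ± 0.20 beside -0.26 in liver. Its liver pool pairs read -0.52 and -0.002, and the self-self liver arrays -0.32 and -0.33. The 3 measured genes of the thermogenesis list were Ckb, the creatine kinase, at 0.33 ± 0.23, Ppargc1b, a coactivator of mitochondrial genes, at 0.20 ± 0.22, and the nuclear receptor Esrra at 0.11 ± 0.19. All 3 were negative on at least 1 array. Of the adipocyte list, Plin3, a lipid droplet coat protein, had 0.55 ± 0.22, Pnpla2, the lipase that starts lipolysis, 0.11 ± 0.21, and Lpl, which frees fatty acids from lipoproteins, -0.25 ± 0.20.

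**Figure D4:**
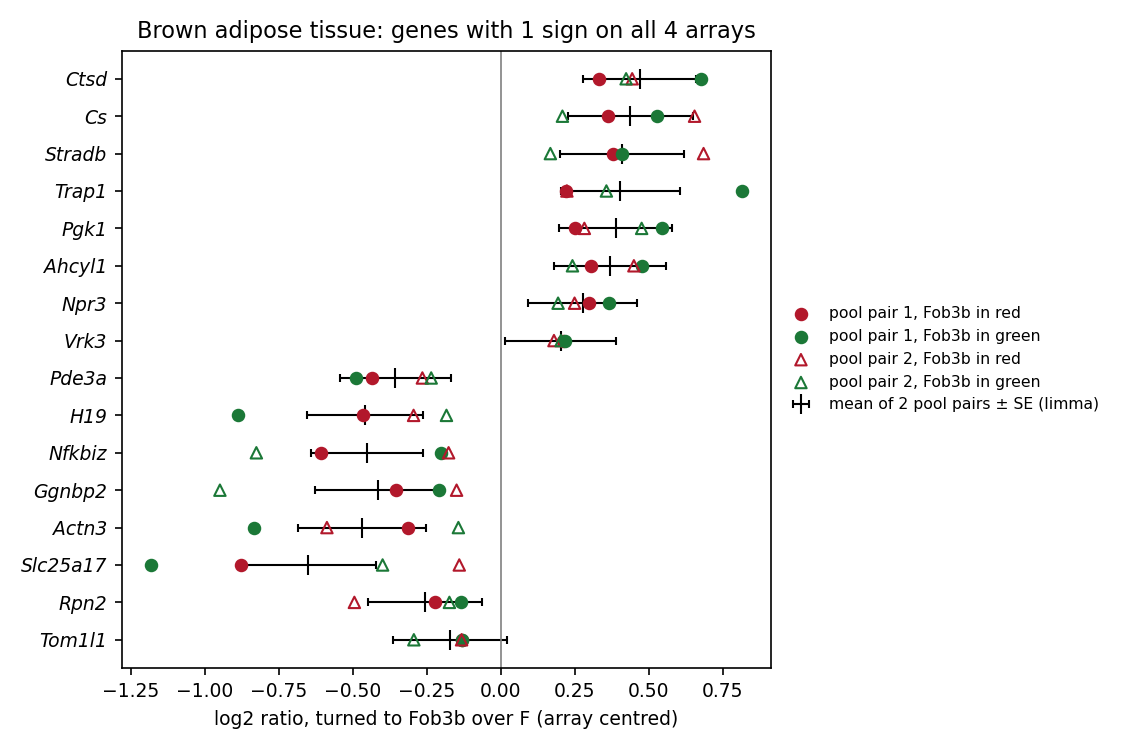
Log2 ratio (horizontal axis, Fob3b over F if the ratio is red over green) on each of the 4 arrays for 8 genes that were positive on all 4 arrays and 8 that were negative on all 4. Symbols are as in the plot of lipid genes. The 4 values of Vrk3 lie between 0.18 and 0.22, and those of Slc25a17 spread from -1.18 to -0.14.

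Over all genes, agreement in sign was the exception. Of 3838 genes 238 (6.2%) had 1 sign on all 4 arrays, 131 positive (3.41%) and 107 negative (2.79%), and the pool pairs had opposite signs in 2208 genes (57.5%). Ranked by the weakest array, Deptor and Elovl6 led the positive side. Next were Ctsd, the lysosomal protease cathepsin D, at 0.33, 0.68, 0.44 and 0.42, and Pgk1. Ctsd had a mean of 0.47 ± 0.19 and stood at 0.46 in pool pair 1 on the second design. Trap1, a mitochondrial chaperone of the Hsp90 family, read 0.22, 0.81, 0.22 and 0.36. Ahcyl1, which regulates the IP3 receptor, read 0.31, 0.48, 0.45 and 0.24, and its liver mean was on the negative side in both pool pairs, at -0.18 and -0.53. Fam151a read 0.74, 0.82, 0.93 and 0.19, with a mean of 0.67 ± 0.22.

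On the negative side the same ranking was led by Pde3a, a phosphodiesterase that degrades cAMP, at -0.44, -0.49, -0.26 and -0.23. H19, an imprinted noncoding RNA, read -0.47, -0.89, -0.29 and -0.18, with a mean of -0.46 ± 0.20, and stood at 0.31 on the second design in pool pair 1. Nfkbiz, a nuclear inhibitor protein of the NF-kappaB pathway, read -0.61, -0.20, -0.18 and -0.83, with a mean of -0.45 ± 0.19. Ggnbp2 read -0.35, -0.21, -0.15 and -0.95. For this gene the second design gave -0.47 in pool pair 1. The other 8 of the 12 were N4bp1, Tmod2, Actn3, Slc25a17, Ppa1, Rpn2, Lama1 and Tom1l1, with means from -0.65 for Slc25a17 to -0.17 for Tom1l1. With arrays left as deposited N4bp1, Tmod2, Rpn2, Lama1 and Tom1l1 had means just above 0, at a median of 0.304 for all genes.

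Genes read by several clones give a check within the arrays. For the 578 genes with 2 clones the means of the clones correlated at 0.38 across genes, and 316 genes (54.7%) had 1 sign. Of the 717 genes with 2 or more clones, 67 (9.34%) had every clone positive in both pool pairs and 18 (2.51%) every clone negative. By mean, the positive group was led by Deptor, Me1, Tkt, Pkm, Rgs2, Cs, Mdh1 and Pfkl. Rgs2, which shortens signals of G protein-coupled receptors, read 0.88, 0.86, 0.44 and -0.09, with a mean of 0.52 ± 0.21. The negative group was led by Mt2, a metallothionein that binds zinc and copper, at -0.84, -0.75, -0.09 and -0.42, with a mean of -0.52 ± 0.26. Next was Plac8 at -0.69, -0.21, -0.28 and 0.05. The neighbouring metallothionein Mt1 was read by 1 clone and had a mean of -0.13 ± 0.23.

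**Figure D5:**
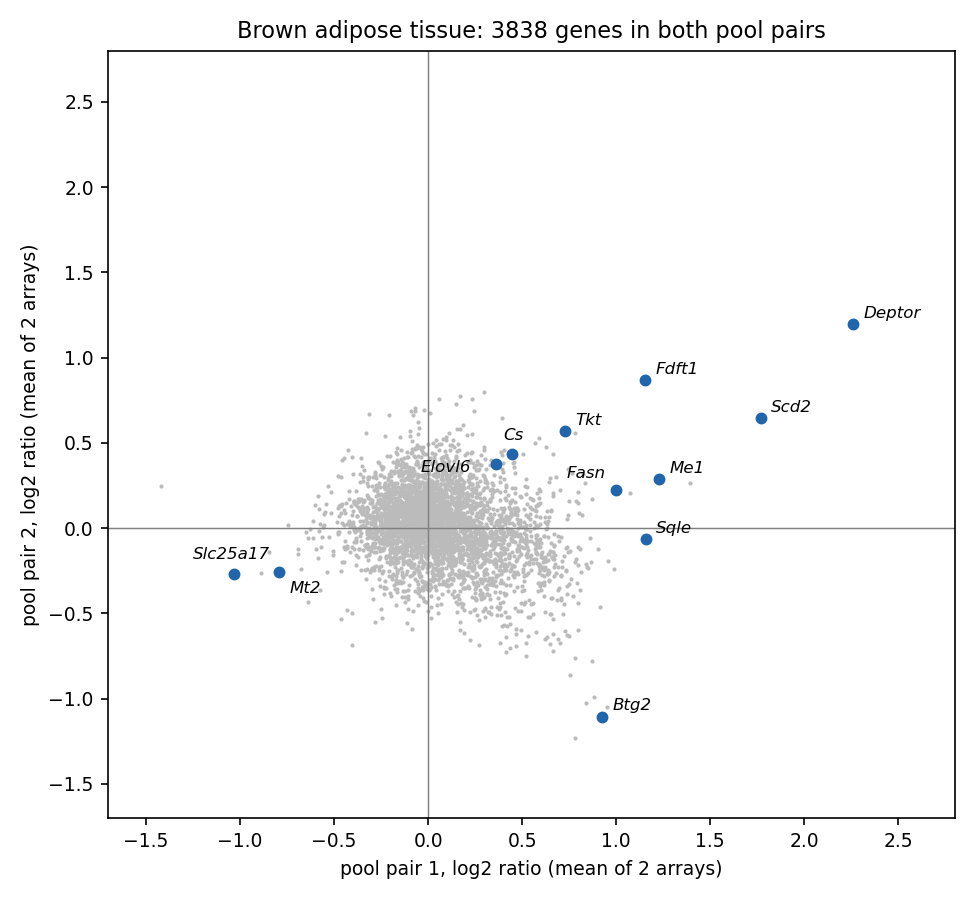
Log2 ratio of 3838 genes in pool pair 1 (horizontal axis, mean of 2 arrays) and in pool pair 2 (vertical axis, mean of 2 arrays), with named genes in blue. Deptor, Scd2 and Fdft1 lie far right and above 0, Sqle lies on the horizontal line, and Btg2 lies at 0.92 and -1.11.

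Pool pairs also contradicted each other by gene. On all 4 arrays 180 genes (4.69%) were positive in pool pair 1 and negative in pool pair 2, and 146 (3.8%) were the reverse. Slf1, a factor of DNA repair, read 0.44 and 0.48 in pool pair 1 and -0.44 and -0.50 in pool pair 2. Timm17a, a subunit of the mitochondrial import channel, read 0.28 and 0.95 and then -0.36 and -0.94. Mepce, a capping enzyme of 7SK RNA, went the other way at -0.27 and -0.27 against 0.40 and 0.38. The spread of the pool pairs was unequal, with 203 genes (5.29%) past 1.5-fold in pool pair 1 and 58 (1.51%) in pool pair 2.

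Genes of protein synthesis, folding and degradation had list medians between 0.021 and 0.145, beside 0.035 and 60.2% positive over all genes. Of 19 measured proteasome genes 18 had a positive mean, with a median of 0.126. Of 28 genes of the mitochondrial ribosome 22 did, with a median of 0.124. Among 26 measured chaperones 21 were positive, with a median of 0.145, and Hspb8, a small heat shock protein, had the largest mean at 0.55. These counts fell when the array of pool pair 2 with Fob3b in red was left out and its dye swap kept. Then 6 of the 19 proteasome genes were positive with a median of -0.048. For the mitochondrial ribosome it was 9 of 28 with -0.054, and for chaperones 13 of 26 with 0.008. Over all genes this setting gave 49.1% positive and -0.004. In pool pair 1 alone the 3 lists had 13 of 19, 18 of 28 and 18 of 26 positive. Their medians there were 0.138, 0.048 and 0.190, beside 56% positive and 0.035 over all genes. The cytosolic ribosome, with 18 of 33 positive and a median of 0.021, had opposed pool pairs. In pool pair 1 alone 8 of 33 were positive with a median of -0.142, and in pool pair 2 alone 28 of 33 with 0.157. Over all genes 56% were positive in pool pair 1 and 53.9% in pool pair 2.

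Immediate early genes respond to handling as well as to hormones. By their means 2 of 12 measured members were positive with a median of -0.097, beside 60.2% and 0.035 over all genes. The list medians were 0.091 and 0.188 on the arrays with Fob3b in red, and -0.181 and -0.233 on those with Fob3b in green. Leaving out the green array of pool pair 1 or 2 gave 6 of 12 positive, with medians of -0.016 and -0.000. Over all genes 53.4% and 57.1% were then positive. Leaving out the red array of pool pair 1 or 2 gave 3 of 12, with medians of -0.123 and -0.205. These 2 settings gave 58.7% and 49.1% positive over all genes. With arrays left as deposited 10 of 12 were positive and the median was 0.172, but the median of all genes was then 0.304. Jun, a subunit of the AP-1 factor, and Myc were the positive members, and Jun read 0.71, 0.62, 0.27 and 0.11. Gadd45g read -0.98, -0.40, 0.01 and -0.31. Btg2, which restrains cell division, read 0.92 in pool pair 1 against -1.11 in pool pair 2.

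Markers of other tissues that a dissected fat pad could hold were few on the array. Both measured skeletal muscle genes of 25 listed were on the negative side. Actn3, an actinin of fast fibres, read -0.31, -0.83, -0.59 and -0.14, and Tpm2, a tropomyosin, read -0.87, -0.91, -0.72 and 0.20. On the second array design Tpm2 had the opposite sign in pool pair 1, at 0.74 beside -0.89 here. Of 4 measured epithelial genes of 10 listed 3 were negative, with a median of -0.293. Krt19 had the largest of these ratios at -1.04, -0.65, -0.18 and -0.10, Krt18 had a mean of -0.35 ± 0.20, and Krt8 had clone means from -0.45 to -0.05. Krt8 and Krt18 are next to each other among the measured genes of chromosome 15. Cdh1 was the positive member, with clone means of 0.16 and 0.06. In pooled tissue RNA, fewer cells of a type and less RNA per cell cannot be told apart.

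Endothelial genes stood at 0.03 to 0.21 in 3 members, hepatocyte genes had a median of -0.1 over 4 and the macrophage gene Lyz2 read -0.01 ± 0.19. No red blood cell or lymphocyte marker on the lists was measured. The list medians of muscle and epithelium thus lay opposite to those of the metabolic genes on 3 arrays, and their part in the result was not tested. Summed levels of these lists cannot be given from ratios.

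The difference between tissues was tested within the same fit, to ask whether the lines differed in brown adipose tissue as they did in liver. No clone passed, with 0.0% of 7680 under an adjusted p of 0.05, 217 (2.83%) under an unadjusted p of 0.05 and a smallest adjusted p of 0.999. Among genes with 1 sign on all 4 brown adipose arrays, Deptor had the largest difference, 1.37 ± 0.36. Timm8b, a chaperone of mitochondrial import, read 0.55, 0.00, 0.14 and 0.05 in brown adipose tissue and -0.89 and -0.62 in the liver pool pairs, a difference of 0.94. Hsd17b4, an enzyme of peroxisomal beta-oxidation, differed by 0.86. Vdac1, the channel of the outer mitochondrial membrane, differed by 0.79.

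On the other side Tigd5 read -0.58, -0.28, -0.09 and -0.86 in brown adipose tissue and 0.36 and 0.80 in liver, a difference of -1.03. Krt19 differed by -1.0, Gata3, a transcription factor that restrains fat cell formation, by -0.99 and Slc25a17 by -0.86. The adjusted p of each of these differences was 0.998 over 3838 genes.

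The metabolic lists did not share 1 side in liver. The citrate cycle median was -0.255 in liver beside 0.293 in brown adipose tissue, and that of ATP synthase was -0.374 beside 0.155. Cholesterol synthesis had a liver median of 0.056 beside 0.473, but its liver pool pairs lay on opposite sides. The 2 liver pool pairs, in the order of their numbers, stood at -0.502 and 0.021 for the citrate cycle, -0.275 and 0.046 for glycolysis and -0.288 and 0.112 for fatty acid synthesis, so the negative sign came from the first. ATP synthase was negative in both, at -0.562 and -0.103. For cholesterol synthesis the first pair gave -0.335 and the second 0.461. The 2 liver arrays on which a pool was hybridised against itself, where no line difference exists, gave medians of -0.304 and -0.249 for the citrate cycle and -0.388 and -0.192 for ATP synthase. Glycolysis stood at -0.324 and -0.21 there, and cholesterol synthesis at -0.109 and -0.042. Fatty acid synthesis stood at 0.074 and -0.111. In size the self-self medians were near those of brown adipose tissue for the citrate cycle and glycolysis and above that for ATP synthase. They were below it for cholesterol and fatty acid synthesis. Each self-self median is from 1 array without a dye swap, whereas the brown adipose medians average dye swaps, so the sizes are not directly comparable. The sign of a self-self median has no line to refer to. Over clones, each brown adipose pool pair correlated with the liver pair of its own number at 0.1 and 0.21, and with that of the other number at -0.4 and -0.24.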

How the data were processed

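RNA of pooled brown adipose tissue was hybridised in 2 colours on 4 spotted cDNA arrays. Each value is a log2 ratio per spot as deposited by the authors. The log base, the numerator dye and any background or dye correction: not given in the sources used here. Of 17280 spots per array 1920 control spots were left out. The rest were 7680 clones with 2 spots each. Per the platform annotation, 4749 clones paired with 1 gene, 227 with several and 2704 with none. Only the first were named (3838 genes), and names were updated through the RefSeq table of GRCm38.p6 for 4712 clones.

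Each array was centred on its median, the 2 spots of a clone were averaged, ratios were turned to Fob3b over F, and the arrays of a dye swap were averaged. Pool pairs of brown adipose tissue and liver were fitted together with limma 3.58.1 in R 4.3.3 (2 residual and 9.09 prior degrees of freedom), with Benjamini-Hochberg adjustment over all clones or genes. Nothing states whether the pools came from separate animals, so p-values refer only to these pool pairs and not to animals. The spread behind them comes from the brown adipose and liver pool pairs together, drawn towards that of all clones or genes. The fit was also run on simulated data with independent normal noise. That noise lacked the dye and printing block pattern of these arrays, so the simulation cannot show how the fit behaves on them. With 2 pool pairs the number of arrays limits the precision.

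Named genes were those with 1 sign on all 4 arrays (12 per side by the weakest array), with 2 or more clones that agreed in both pool pairs (8 per side by mean), with opposed pool pairs (6 per side), with the largest difference from liver (6 per side), up to 5 members per list, and Deptor, Scd2, Fdft1, Me1, Fasn and Sqle. Further members of lists, and neighbours of Deptor on chromosome 15, were named beside them. The members, lists and named genes were chosen with earlier results of these data known, and the chromosome 15 counts were added after seeing the data. Alternatives changed the centring, the scale of the arrays, the samples in the fit, a block for the pool number, the filter on spots and the pool pair or array left out.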

Additional observations from a re-analysis of the deposited data

Results flagged for a closer look

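For 5 of the 87 genes named by their mean, 1 of the 4 brown adipose arrays stood apart from the other 3 by Dixon's test at its 95% level. Chance flags about 1 group in 20 if the 4 values are independent. Here they are dye swaps of 2 pool pairs, and many genes were named by these same values. That rate therefore need not hold. The array of pool pair 2 with Fob3b in green was the one standing apart in 4 of them. On it Scd2 read -0.29 beside 1.58 to 1.89 on the other arrays, Idh1 read -0.12 beside 0.63 to 0.73, Tpm2 read 0.20 beside -0.91 to -0.72 and Tom1l1 read -0.29 beside -0.13 on the other 3. On the array of pool pair 1 with Fob3b in red, Hmgcs1 read -0.50 beside -0.12 to -0.08.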

How the results depend on the processing

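The count of clones past an adjusted p of 0.05 was 0 with limma. It stayed 0 with each printing block centred, with arrays on a common scale, with spots of a clone within 0.5 of each other, with each array a replicate and with a dye term. It was 1 with no centring (a Deptor clone, adjusted p 0.0287, the median clone then at 0.30) and 4 with the brown adipose pool pairs fitted alone (both Deptor clones, Fdft1 and Scd2). Leaving out a pool pair or array gave 0 to 1 clones. The clone was a Deptor clone both without pool pair 2 and without its array with Fob3b in green, and a lone pool pair is then assumed to vary like liver. Averaged per gene, as added after seeing the data, the count was 1 with no centring and 1 with brown adipose tissue alone (Deptor), and 0 to 3 when a pool pair or array was left out: Deptor, Scd2 and Fdft1 without the array of pool pair 2 with Fob3b in green. The difference from liver had 0 clones in every setting run. With the pool number as a replicate block, 0 clones passed for either result and 143 clones had an unadjusted p under 0.05 in brown adipose tissue, beside 65 without it. The labels do not say that a number marks the same animals in both tissues, and same-numbered pool pairs of the tissues correlated at 0.1 and 0.21.

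Of 87 genes named by their mean, 15 changed sign with no centring, which moved the median gene to 0.304 and put 98.2% of genes on the positive side, beside 60.2%: Akt1s1 to 0.24, Dgat1 to 0.17, Ggps1 to 0.060, Hmgcs1 to 0.067, Krt8 to 0.032, Lama1 to 0.017, Lpl to 0.021, Lyz2 to 0.26, Mt1 to 0.14, N4bp1 to 0.014, Nsdhl to 0.17, Rpn2 to 0.012, Rragd to 0.036, Tmod2 to 0.028 and Tom1l1 to 0.097. With printing blocks centred Slc2a1 went to -0.082. Over pool pairs or arrays left out, 14 of the 87 had both signs: Agpat1 from -0.17 to 0.40, Akt1s1 from -0.28 to 0.22, Dgat1 from -0.36 to 0.16, Esrra from -0.12 to 0.33, Lyz2 from -0.18 to 0.15, Mmd2 from -1.42 to 0.25, Mt1 from -0.34 to 0.079, Myc from -0.067 to 0.40, Nsdhl from -0.49 to 0.29, Pnpla2 from -0.34 to 0.57, Rragd from -0.60 to 0.14, Slc2a1 from -0.16 to 0.21, Sqle from -0.064 to 1.16 and Vldlr from -0.014 to 0.33. List medians most often turned without the array of pool pair 2 with Fob3b in red, 14 of 31. Without all of pool pair 1, and likewise without all of pool pair 2, 3 of 31 turned. The cause of these changes was not tested.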
